A study of Mus musculus with 14 samples.

Results

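The genes described here are 10 genes of the extracellular matrix, Ecm1, Fn1, Acan, Bcan, Ncan, Vcan, Tnc, Tnr, Hapln1 and Hapln4, in ribosome-bound RNA of hypothalamic POMC neurons of the mouse. They were taken by gene symbol from the deposited table of 44672 genes, and each symbol stood there once. The list was chosen by results of these data already known: Ecm1 and Fn1 were selected on the measured difference between the groups in the authors' comparison, and the 8 other genes belong to perineuronal nets. The values of that comparison were not used here, but the mean over all pools averages the same ratios that the comparison was made from. The places of Ecm1 and Fn1 among genes are therefore not independent of their selection. The values below are a description of the mean over all pools, with no test.

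The pulldown came from random-fed mice killed at 12 weeks of age, with equal numbers of males and females in a pool. For POMC Lepr+ neurons there were 4 pools, each from 6 mice carrying POMCDre+/-, LeprCre+/- and ROSA26lSlrSrEGFPL10a+/-, and for POMC Glp1r+ neurons 3 pools, each from 12 mice carrying POMCDre+/-, Glp1rCre+/- and ROSA26lSlrSrEGFPL10a+/-. The ribosomal protein L10a fused to EGFP is driven by the CAGS promoter at ROSA26 once both Dre and Cre have removed their stop cassettes, so the anti-EGFP immunoprecipitate (IP) samples RNA on tagged ribosomes and the input is RNA of the same pool before the pulldown. Each pool gave 1 IP and 1 input library, 14 libraries in all. The Dre transgene is a BAC under the control of POMC that also acts in the pituitary. A recombined allele stays recombined, so a cell in which a driver was active at any earlier time can carry the tag. According to the study's methods the tissue was the whole hypothalamus and the input was supernatant of its homogenate set aside before the pulldown, while the series record describes a dissected arcuate nucleus. The tissue to which each ratio is relative therefore differs between these sources.

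The value used here is 1 number per gene, the authors' mean over the 7 pools of the IP/input ratio multiplied by 1000, given below divided by 1000, so that 1 is the value of equal IP and input. In all, 13059 of the 44672 genes, 2911 of them protein-coding, stood at exactly 1, and a gene there may have had no counts, which could not be seen from the mean. These genes were left out of the reference set. It carries no spread between pools and mixes both kinds of neuron, so POMC Lepr+ and POMC Glp1r+ neurons are not compared. The ratio is a relation of IP to input and not a level of expression, and the read depth behind it is unknown. In both kinds of library, fewer cells of a type and less RNA per cell cannot be told apart. Among the 18379 protein-coding genes with a mean ratio other than 1, the median ratio was 1.14, with quartiles of 0.868 and 1.48. Of these genes 62.4% lay above 1 and 23.7% lay above 1.5. The POMC neuron markers Pomc, Cartpt, Prdm12 and Tbx3 had ratios of 172, 32.5, 30.2 and 20.4. All 33 astrocyte, oligodendrocyte, oligodendrocyte precursor and microglia markers lay below 1, between 0.326 and 0.809.

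Perineuronal nets are lattices of matrix around the cell body and proximal dendrites of some neurons. Their backbone is hyaluronan, to which the lecticans, proteoglycans carrying chondroitin sulphate chains, are fastened by link proteins and cross-linked by tenascin-R. Nets form late in development and are known for limiting plasticity, and in the mediobasal hypothalamus they enmesh neurons of the arcuate nucleus. Fibronectin and Ecm1 do not belong to this lattice. Fibronectin is a dimeric adhesive glycoprotein that cells bind through integrins, and Ecm1 is a secreted glycoprotein first described in skin and bone that binds perlecan, fibulin-1 and Mmp9.

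Ecm1 and Vcan stood at the opposite ends of the 10 genes, and the sequences around their start sites are shown for that reason. Both are RefSeq sequences on GRCm38.p6 that run from 250 bases before the start to 50 bases after it, 5′ to 3′ on the strand of the gene. Ecm1 lies at chr3:95739520-95739819 on the minus strand and Vcan at chr13:89742463-89742762 on the minus strand. Capitals mark each match to TATAAA or GGGCGG on either strand, so a match on the opposite strand reads TTTATA or CCGCCC.
Ecm1: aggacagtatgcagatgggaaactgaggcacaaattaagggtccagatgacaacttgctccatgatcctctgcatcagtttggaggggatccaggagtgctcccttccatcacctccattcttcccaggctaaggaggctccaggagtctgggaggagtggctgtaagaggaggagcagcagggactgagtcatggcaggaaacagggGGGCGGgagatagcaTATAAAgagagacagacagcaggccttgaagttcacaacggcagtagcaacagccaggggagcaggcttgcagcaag
Vcan: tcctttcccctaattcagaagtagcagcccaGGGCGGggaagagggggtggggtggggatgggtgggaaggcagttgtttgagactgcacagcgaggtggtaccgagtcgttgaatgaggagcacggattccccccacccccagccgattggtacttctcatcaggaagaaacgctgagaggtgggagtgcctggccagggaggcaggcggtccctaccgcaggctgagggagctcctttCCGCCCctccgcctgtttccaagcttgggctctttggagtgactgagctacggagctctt
The Ecm1 window holds 1 TATAAA and 1 GGGCGG, and the Vcan window holds no TATAAA and 2 GGGCGG. Of the 27025 mouse promoters in the same set, 14.2% hold TATAAA and 35.9% hold GGGCGG. The GC content was 54.7% for Ecm1 and 61.0% for Vcan, with a median of 52.7% over all these promoters. A match to these letters is a description of the window and not a site in use. Promoters were matched for 8 of the 10 genes, all but Fn1 and Hapln4.

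Of the 10 genes, 4 lay above input (Ecm1, Fn1, Tnc and Hapln4) and 6 lay below it, against 62.4% above among all protein-coding genes, and 2 of 10 (Ecm1 and Fn1) lay above 1.5, against 23.7%. The median of the 10 genes was 0.701. Without Ecm1 and Fn1, 2 of 8 genes lay above input and the median was 0.634. From highest to lowest the order was Ecm1, Fn1, Tnc, Hapln4, Tnr, Bcan, Ncan, Hapln1, Acan and Vcan, and Ecm1 and Vcan spanned the range from 9.80 to 0.309. Because the mean carries no spread, it could not be assessed which neighbours in this order differ beyond the variation between pools. The steps between neighbours were 2.93-fold from Fn1 to Ecm1, 2.78-fold from Tnc to Fn1 and 1.52-fold from Hapln1 to Ncan, and the 6 others lay between 1.05-fold and 1.35-fold.

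**Figure D1:**
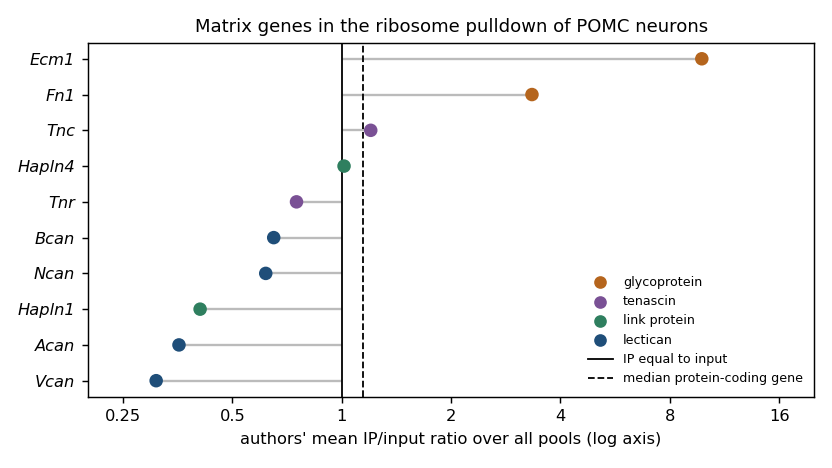
Authors' mean IP/input ratio over the 7 pools for the 10 matrix genes, on a log axis and coloured by protein class. The solid line marks equal IP and input and the dashed line the median protein-coding gene (1.14), and only Ecm1 (9.80) and Fn1 (3.34) lie far to the right while the 4 lecticans lie to the left of 1.

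Ecm1 had the highest ratio of the 10 genes. Its mean IP/input ratio was 9.80, above 99.6% of the 18379 protein-coding genes, with 78 genes higher, and 8.57 times that of the median gene. Ecm1 (ENSMUSG00000028108) lies at chr3:95734147-95739569 on the minus strand, with 10 transcripts, the longest of 1900 bases in 11 exons. The microRNA gene Mir7014 overlaps an exon of Ecm1 on the same strand and stood at exactly 1, the value that may mean no counts. The sum of the Ecm1 ratios over the 7 pools was 68.6, so at least 1 pool reached 9.80. No single pool of the 8 net genes can have reached that value, since the sum over all 7 pools was at most 8.41 for each of them (Tnc). The sum does not say how many pools carried the high ratio of Ecm1, nor in which kind of neuron.

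Fn1, which encodes fibronectin, had a mean ratio of 3.34, above 97.5% of protein-coding genes, with 458 genes higher. Fn1 (ENSMUSG00000026193) lies at chr1:71585520-71653200 on the minus strand, with 17 transcripts, the longest of 8315 bases in 46 exons. At least 1 pool reached 3.34 for Fn1. Apol7d, annotated as antisense, shares exon bases with Fn1 from the plus strand and had a ratio of 3.30. The study's methods describe second-strand cDNA synthesis before library preparation and name no strand-specific step. Reads of Fn1 and Apol7d may therefore be shared, and the part of this overlap in the Fn1 ratio was not tested. Fn1 is also made by endothelial cells and fibroblasts. The 10 endothelial and mural markers lay between 0.350 and 1.55 with 3 above input. The 6 fibroblast markers lay between 0.331 and 1.09 with 1 above input, beside 62.4% above input among all protein-coding genes. The part of these cell types in the Fn1 and Ecm1 ratios was not tested. Among these fibroblast markers the collagen genes Col1a1, Col1a2 and Col3a1 had the highest ratios, 1.09, 0.792 and 0.811. The others, Dcn, Lum and Pdgfra, had ratios of 0.616, 0.339 and 0.331.

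All 4 lecticans lay below input, while 62.4% of all protein-coding genes lay above it. Vcan, which encodes versican, a large lectican made by glia and by mesenchymal cells, had the lowest ratio of the 10 genes at 0.309, and only 0.748% of protein-coding genes were lower. Acan, which encodes aggrecan, the lectican that nets depend on most, had a ratio of 0.357 (percentile 1.46). Ncan and Bcan, which encode neurocan and brevican, the lecticans found mainly in the nervous system, had ratios of 0.618 (percentile 9.37) and 0.650 (percentile 10.8).

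The sums over pools limit how many pools can have been above input, because a ratio cannot be negative and was rounded to whole units of the deposited scale. On that scale of 1000 for equal IP and input, Vcan summed to 2160 and Acan to 2496 over 7 pools, so at most 2 pools were above input for either gene. Vcan and Acan were therefore at or below input in at least 5 of 7 pools, which means at least 2 of the 4 POMC Lepr+ pools and at least 1 of the 3 POMC Glp1r+ pools. No pool can have had a ratio above 2.16 for Vcan or above 2.50 for Acan. Ncan and Bcan were at or below input in at least 3 of 7 pools. The lecticans lay between 0.309 and 0.650 and the glial markers between 0.326 and 0.809. The ranges of the other marker lists stand beside these. The pan-neuronal markers ran from 0.571 to 1.96 and the endothelial and mural markers from 0.350 to 1.55. Of the 10 pan-neuronal markers 8 lay above input, and only the lowest lay in the lectican range. The fibroblast markers ran from 0.331 to 1.09 and the tanycyte and ependymal markers from 0.396 to 3.90. The lowest fibroblast marker is also listed as an oligodendrocyte precursor marker. The median was 0.398 over 10 astrocyte markers, 0.474 over 10 oligodendrocyte markers, 0.409 over 5 oligodendrocyte precursor markers and 0.464 over 8 microglia markers, beside 0.487 over the 4 lecticans. The part of glial RNA in the lectican ratios was not tested.

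Vcan (ENSMUSG00000021614) lies at chr13:89655312-89742509 on the minus strand, with 9 transcripts, the longest of 12427 bases in 15 exons. Acan (ENSMUSG00000030607) lies at chr7:79053483-79115099 on the plus strand, with 2 transcripts, the longest of 7355 bases in 17 exons. Ncan (ENSMUSG00000002341) lies at chr8:70093085-70120873 and Bcan (ENSMUSG00000004892) at chr3:87987531-88000230, both on the minus strand, with 1 and 6 transcripts. Their longest transcripts hold 7195 bases in 15 exons and 3141 bases in 14 exons. No exon of another annotated gene overlaps an exon of the 4 lecticans.

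The link proteins, which tie lecticans to hyaluronan, comprised Hapln4 just above input and the rest below it. Hapln1, the link protein first isolated from cartilage, had a ratio of 0.408 (percentile 2.46). Its sum of 2854 on the deposited scale leaves at most 2 pools above input, so Hapln1 was at or below input in at least 5 of 7 pools. Hapln4, a brain link protein found with brevican, had a ratio of 1.02 (percentile 38.8), which was above input but below the median protein-coding gene. The other two link proteins, which were not among the 10 genes, were Hapln3 at 0.482 and Hapln2, found at nodes of Ranvier, at 0.430. Each of Hapln1 and Hapln4 lies beside a lectican gene. Hapln1 (ENSMUSG00000021613), at chr13:89539796-89611652 on the plus strand with 2 transcripts, the longest of 5715 bases in 5 exons, is a neighbour of Vcan, and the ratios of the pair were 0.408 and 0.309. Hapln4 (ENSMUSG00000007594), at chr8:70083457-70090862 on the plus strand with 3 transcripts, the longest of 3648 bases in 5 exons, is a neighbour of Ncan, and the ratios of that pair were 1.02 and 0.618.

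**Figure D2:**
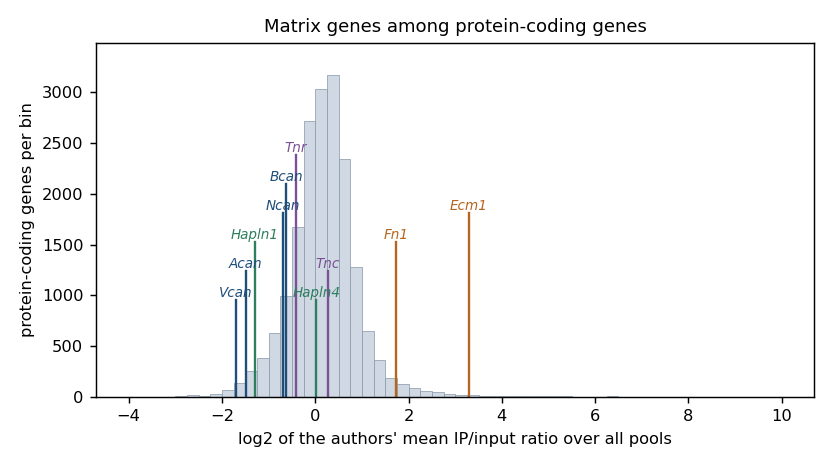
Number of protein-coding genes in bins of log2 mean IP/input ratio (18379 genes, those at exactly 1 left out), with a vertical line at each of the 10 matrix genes; the height of a line serves only to separate the names. Ecm1 and Fn1 lie in the right tail, Vcan, Acan and Hapln1 in the left tail, and Tnc and Hapln4 in the bulk of the distribution.

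Of the tenascins, Tnr lay below input and Tnc above it in the mean over the 7 pools. How many pools were above input for Tnc cannot be seen from that mean. Tnr encodes tenascin-R, the tenascin that cross-links lecticans in nets, and had a ratio of 0.751 (percentile 16.3), with at least 2 of 7 pools at or below input. Tnr (ENSMUSG00000015829) lies at chr1:159523769-159931729 on the plus strand, with 5 transcripts, the longest of 12202 bases in 23 exons. The antisense gene Gm38039 shares exon bases with Tnr and had a ratio of 3.20, and its part in the Tnr ratio was not tested. Tnc encodes tenascin-C, which is made by astrocytes and radial glia during development, and had a ratio of 1.20 (percentile 55.3), 1.05 times that of the median gene. Tnc (ENSMUSG00000028364) lies at chr4:63959785-64047015 on the minus strand, with 4 transcripts, the longest of 7106 bases in 26 exons, and shares exon bases with the processed transcript 8030451A03Rik on the plus strand, which had a ratio of 0.876. The tenascins outside the 10 genes were higher, Tnn at 3.29 and Tnxb at 1.98.

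Genes that make, break down or bind the hyaluronan backbone were spread over the whole range. Of 10 such genes 7 lay above input and 3 above 1.5, beside 62.4% and 23.7% of all protein-coding genes, with a median of 1.11 beside 1.14. Cd44, the main cell surface receptor for hyaluronan, had the highest ratio of any matrix gene listed at 10.6, followed in this list by the hyaluronidase Hyal2 at 2.95. Has2, a hyaluronan synthase, had the lowest at 0.278, followed by the hyaluronidase Hyal1 at 0.539. Of 13 genes for the synthesis of chondroitin sulphate chains 6 lay above input and 5 above 1.5, with a median of 0.930. The highest of them were the sulphotransferase Chst12 at 2.05 and the polymerising factor Chpf at 1.90. The lowest were the sulphotransferases Chst3 at 0.655 and Chst15 at 0.710.

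Receptors for the chains and factors bound in nets lay above input in 5 of 7 genes and above 1.5 in 3, beside 62.4% and 23.7% of all protein-coding genes, with a median of 1.36 beside 1.14. Nptx2, a secreted pentraxin that gathers AMPA receptors, had a ratio of 4.39. The receptors Rtn4r, Ptprs, Ptprf and Rtn4rl1, through which chondroitin sulphate proteoglycans act on axons, had ratios of 1.79, 1.58, 1.36 and 1.14. Sema3a, a guidance factor held in nets, had a ratio of 0.920, and Otx2, a homeoprotein captured by nets, had a ratio of 0.501.

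The genes for binding partners of fibronectin and Ecm1 were looked at next. Fn1 and Ecm1 were chosen by results of these data and lay above 97.5% and 99.6% of protein-coding genes. That their partners had lower ratios therefore holds for most genes and is no result about the partners. Among 6 integrin subunits that form fibronectin receptors, Itgb1 had a ratio of 2.13 and Itgb3 of 1.05, while Itga5, Itga4, Itga8 and Itgav had ratios of 0.853, 0.706, 0.617 and 0.377. All 3 genes for Ecm1-binding proteins lay below input, Mmp9 at 0.962, Hspg2, which encodes perlecan, at 0.451 and Fbln1 at 0.407. Of all protein-coding genes 62.4% lay above input. Proteases that cleave lecticans divided, with Adamts1 at 2.05 and Adamts9 at 1.94 above input and Adamts15, Adamts5 and Adamts4 below it at 0.928, 0.804 and 0.714. Timp3, a matrix-bound protease inhibitor, had a ratio of 0.524.

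The counts in this paragraph stand beside those of all protein-coding genes, of which 62.4% lay above input and 23.7% above 1.5. Among 28 other genes for secreted matrix proteins 10 lay above input and 4 above 1.5, with a median of 0.683. The highest were Matn2, a matrilin, at 2.28 and Spock2, a testican, at 1.64. The lowest were Lum, a small leucine-rich proteoglycan, at 0.339 and Sparcl1, an astrocyte-secreted matricellular protein, at 0.364. Over all 77 listed matrix genes outside the 10, 34 lay above input and 20 above 1.5, with a median of 0.920 and a range from 0.278 to 10.6. Ecm1 was exceeded in this set by Cd44 alone, and Vcan exceeded Has2 alone. Among the marker lists the 10 pan-neuronal markers had a median of 1.52 and ranged from 0.571 to 1.96, with 8 above input. The 7 tanycyte and ependymal markers had a median of 0.783, with 1 of them above input, Vim at 3.90, which was named after its value was seen.

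**Figure D3:**
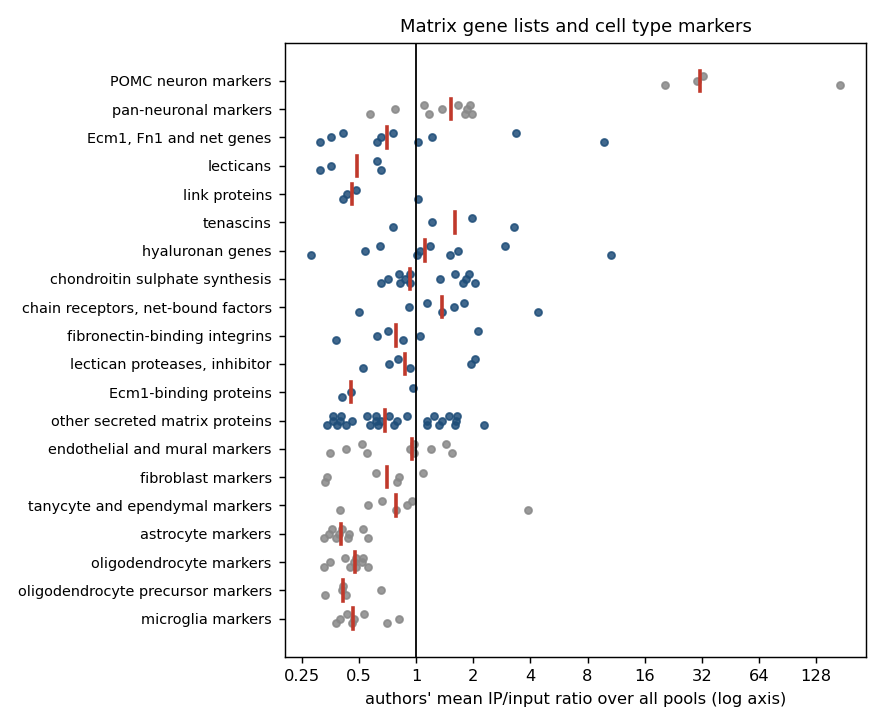
Authors' mean IP/input ratio over the 7 pools, on a log axis, for every gene of each matrix list (blue) and cell type marker list (grey), with the median of each list in red and equal IP and input as a black line; a gene in several lists is drawn in each. POMC neuron markers lie between 20.4 and 172, the 33 glial markers between 0.326 and 0.809, and the lecticans between 0.309 and 0.650.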

How the data were processed

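Hypothalamic POMC neurons were profiled by pulldown of EGFP-L10a ribosomes in 7 pools, with an IP and an input library each. The submitters' processing notes name STAR, Salmon 0.14.1, DESeq2 1.26.0 and GRCm38.p6. Within a pool, the authors took the ratio of IP to input counts. The authors' deposited value is a score: the average of these ratios over all pools, multiplied by 1000 and rounded in each pool. The values bear out this scale: the mean times 7 was whole in 100% of genes (tolerance 1e-06), and 13059 genes stood at exactly 1000. Whether library size was corrected before division is not given in the sources used here, so the median gene served as an alternative reference. The depth is unknown.

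The 5 columns of the authors' comparison (fold change, standard error, statistic, p-value and adjusted p-value) were not used, so no test was made. The design assumed this. The members and lists were chosen with earlier results of these data known. Named genes were the 10 members, every gene of lists of up to 7 genes, and the highest and lowest 2 of longer lists. Marker lists are given as ranges except where stated. The fibroblast markers Col1a1, Col1a2, Col3a1, Dcn, Lum and Pdgfra were named after their values were seen. All 153 listed genes were found. Loci came from GENCODE M21 on GRCm38, which held 44116 of the identifiers. Alternatives were other reference genes and thresholds. Scripts ran under Python 3.11.15 with pandas 2.3.3, numpy 2.4.6 and matplotlib 3.10.9.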

Additional observations from a re-analysis of the deposited data

How the results depend on the processing

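Relative to the median protein-coding gene, the median ratio of the 10 genes was 0.613 in place of 0.701, and Hapln4 turned from above to below the reference, at 0.888. With that gene as the threshold 3 of the 10 genes were above it, and with a threshold of 1.5, 2 were. The median percentile of the 10 genes was 13.5 among protein-coding genes other than at 1. It was 11.7 among all protein-coding genes, 10.8 among all genes of the table and 35.1 among the other listed matrix genes, and the reference set is the only difference between these values. Lists with a median above the reference numbered 3 of 10, and 2 of 10 after division by the median gene. No paired analysis was possible because the deposited mean holds no value of a single library, and for the same reason no pool could be left out. The depth behind each ratio is unknown.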
